A study of Mus musculus with 24 samples.

Results

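The genes described are 10 members of the TGF-beta and BMP pathways: the ligand genes Tgfb1, Tgfb2, Tgfb3, Bmp2 and Bmp4, and the direct response genes Id1, Id2, Id3, Smad6 and Smad7. A row of the expression table was taken for a gene where the array's probe annotation gave that symbol and no other, with the brightest row per gene. Each of the 10 genes had exactly 1 such row among the 35556 rows of the table. To be tested, a gene's row had to reach the 40th percentile of intensities on 3 or more of the 24 arrays. In all 14489 genes did so, among them 9 of the 10 members. The exception was Bmp2 (probe set 10476395), which lay below that percentile on all 24 arrays.

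RNA came from MLO-Y4, a mouse cell line with features of osteocytes, the cells embedded in bone matrix. In the IgG arm the cells received an irrelevant rabbit IgG, and in the E2 arm they received Cx43(E2) at 28 µg/ml, an antibody that blocks hemichannels built of connexin 43. Antibody was given for 30 min at 37 °C under 5% CO2. Cells then stayed in the incubator, as group C, or went onto a platform that provides a high magneto-gravitational environment, at 1 of 3 positions called 1g, 2g and ug (µg in the protocol). The arm and the environment together make 8 groups of 3 arrays. All groups share the cell line, and the protocol text names no further genotype or agent. The study asked how the platform positions and the hemichannel antibody alter expression. A set here means 4 arrays of the same arm whose titles carry the same replicate number, and E2 3 names number 3 of the E2 arm. The labels do not say what a number stands for, nor that arrays came from separate cultures, so p-values measure only the spread between these arrays.

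TGF-beta and BMP ligands are secreted dimers that bring type I and type II serine/threonine kinase receptors together on the cell surface. The activated receptors phosphorylate receptor Smads, which bind Smad4 and act on target genes in the nucleus. TGF-beta is held latent in the matrix and is abundant in bone, and BMPs are known for inducing bone formation. The Id genes encode inhibitors of basic helix-loop-helix factors and are textbook BMP targets, while Smad6 and Smad7 encode inhibitory Smads that feed back on the receptors.

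Upstream sequence was at hand in RefSeq (GRCm38.p6) for 6 of the 10 members, Tgfb1, Tgfb2, Bmp4, Id2, Id3 and Smad6. The windows are the 250 bases before the annotated start. They are shown for 3 of the response genes that were lower in set E2 3 and for the 2 ligand genes that were higher there, written 5′ to 3′ on the gene's strand, with every CAGAC (the core of a Smad binding element) or GGCGCC (a GC-rich Smad site) on either strand in capitals.
Id2, chr12:25096093-25096342, minus strand: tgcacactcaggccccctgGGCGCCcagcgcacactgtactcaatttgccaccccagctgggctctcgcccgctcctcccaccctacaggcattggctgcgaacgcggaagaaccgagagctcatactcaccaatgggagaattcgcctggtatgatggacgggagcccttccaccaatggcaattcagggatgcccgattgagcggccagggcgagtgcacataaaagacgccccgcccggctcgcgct
Id3, chr4:136143572-136143821, plus strand: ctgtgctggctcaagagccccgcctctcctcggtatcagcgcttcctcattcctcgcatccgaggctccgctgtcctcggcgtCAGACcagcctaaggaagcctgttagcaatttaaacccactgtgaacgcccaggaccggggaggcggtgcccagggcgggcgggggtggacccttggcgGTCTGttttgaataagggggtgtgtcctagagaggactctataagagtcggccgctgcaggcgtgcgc
Smad6, chr9:64022060-64022309, minus strand: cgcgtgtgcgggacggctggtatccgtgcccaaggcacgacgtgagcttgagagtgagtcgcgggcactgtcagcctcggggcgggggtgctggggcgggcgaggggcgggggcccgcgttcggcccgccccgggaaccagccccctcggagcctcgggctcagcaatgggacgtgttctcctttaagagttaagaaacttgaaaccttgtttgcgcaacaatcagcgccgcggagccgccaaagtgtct
Tgfb1, chr7:25686752-25687001, plus strand: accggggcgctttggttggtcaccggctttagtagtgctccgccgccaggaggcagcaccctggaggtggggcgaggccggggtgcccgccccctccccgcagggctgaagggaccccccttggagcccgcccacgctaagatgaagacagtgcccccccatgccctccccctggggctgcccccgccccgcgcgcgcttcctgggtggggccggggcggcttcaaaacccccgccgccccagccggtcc
Bmp4, chr14:46390670-46390919, minus strand: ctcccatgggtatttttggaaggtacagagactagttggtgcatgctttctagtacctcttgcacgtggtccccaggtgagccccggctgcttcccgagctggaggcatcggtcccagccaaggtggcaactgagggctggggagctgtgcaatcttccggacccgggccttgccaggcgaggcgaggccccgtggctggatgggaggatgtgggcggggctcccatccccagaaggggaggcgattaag
Id3 held CAGAC at -167 on its own strand and at -68 on the opposite strand, counted from the start. Id2 held GGCGCC at -231. The windows of Smad6, Tgfb1 and Bmp4 held neither string. Tgfb2, not printed, held CAGAC at -221 and -204. These motifs do not overlap each other, and CAGAC occurred in 42.19% and GGCGCC in 9.59% of 32851 promoter windows of the same length. The GC content was 62.8% for Id2, 62.8% for Id3, 66.8% for Smad6, 75.2% for Tgfb1, 63.2% for Bmp4 and 53.6% for Tgfb2, against a median of 52.4% over all windows. A match describes the letters in the window and is not a binding site.

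Values are deposited log2 intensities, and levels of different probe sets cannot be set against each other. Array medians lay between 6.48 and 6.65. Number 3 stood apart in both arms. On the first principal component of the 14489 genes, which held 44.6% of the variance, the arrays of IgG 1, IgG 2 and E2 3 lay between -22.7 and -6.9, and those of IgG 3, E2 1 and E2 2 lay between 3.7 and 26. The number 3 sets thus lay with the other sets of the opposite arm. Whether their arm labels are right was not tested, and E2 3 and IgG 3 stand throughout for the sets labelled so. Every difference of a number 3 set and every comparison between arms rests on these labels. Of 8 osteocyte markers 7 were on the array. Gja1, the gene of connexin 43 (11.37 to 12.002), and Pdpn (12.50 to 12.84) passed the filter with Sost and Fgf23, but the defining markers Dmp1, Phex and Mepe stayed at 4.35 to 4.88 and did not.

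The members differed more between sets than between environments. Sets and arms held 56.3% to 82.64% of the spread of each tested member over the 24 arrays. Environments within an arm held 2.71% to 15.57%. Over all genes tested, the median share of sets and arms was 51.47%, and that of environments was not computed. In set E2 3, Id1, Id2, Id3, Smad6, Smad7 and Tgfb3 were lower than in set E2 1, and Tgfb1 and Bmp4 were higher. These 8 of 9 tested members passed the test, 2 higher and 6 lower, in a comparison in which 35.7% of all genes tested were called (18.4% higher and 17.3% lower). Against set E2 2, 7 of 9 members passed, 2 higher and 5 lower, against 34.9% of all genes (18.7% higher and 16.3% lower). The median log2 difference of the members was -0.31 against set E2 1 and -0.25 against set E2 2, beside 0.03 and 0.04 for all genes tested. Sets were compared in a limma fit of the 8 group means plus the set within each arm, with Benjamini-Hochberg adjustment over all 14489 genes, a threshold of 0.05 and 4 arrays per set. Where sets are said below not to overlap, the share of all genes without overlap was not computed.

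**Figure D1:**
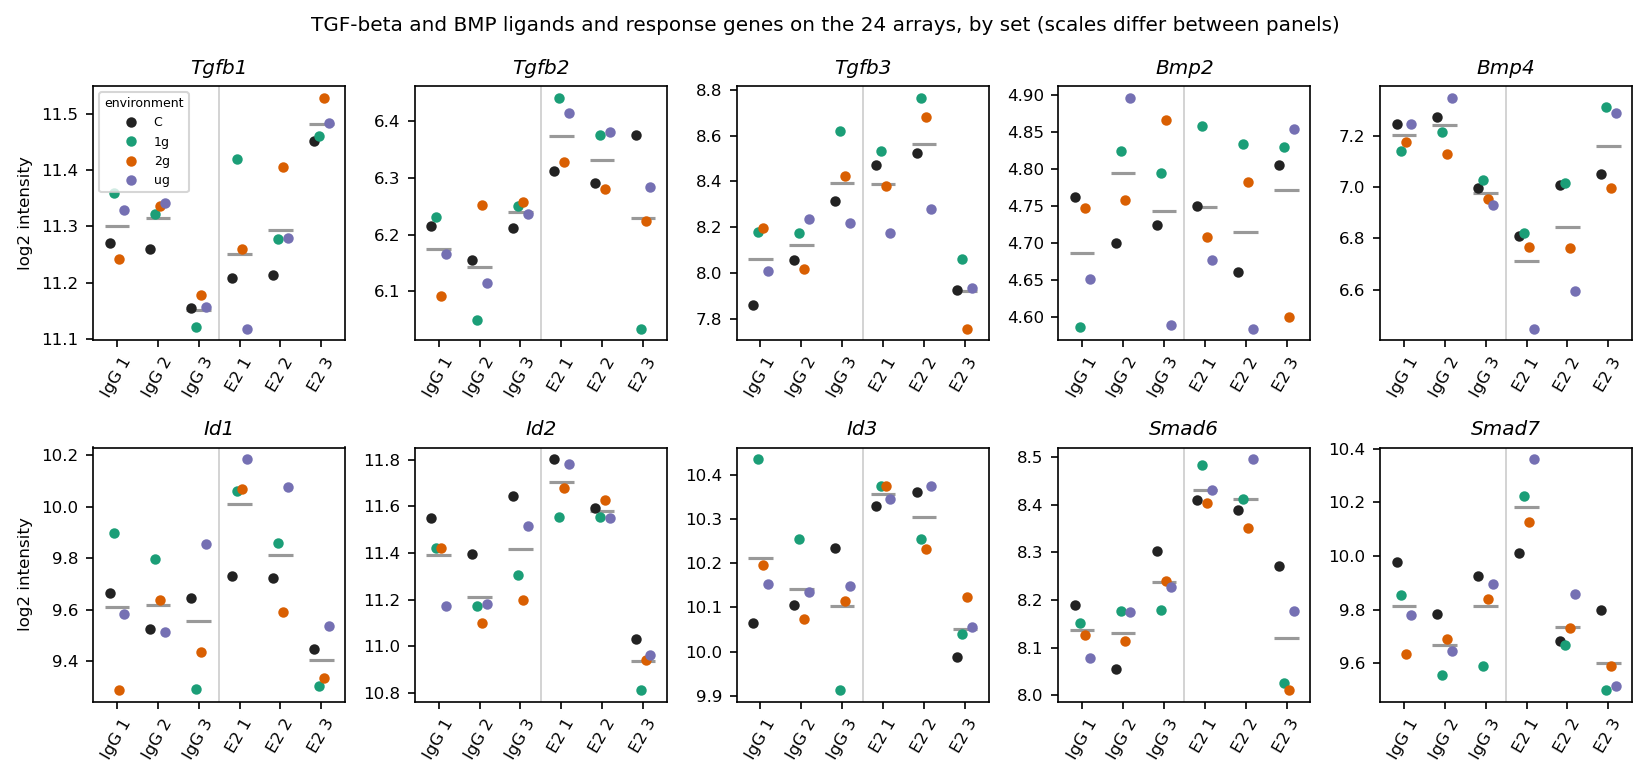
Log2 intensity of the 10 genes on the 24 arrays (points, coloured by environment) with the mean of each set (grey bars), IgG sets on the left and E2 sets on the right of each panel. Id2 lies at 10.81 to 11.03 in set E2 3 and at 11.10 or above on the other 20 arrays, and Bmp2 stays between 4.58 and 4.90.

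Among the ligand genes, Tgfb1 (probe set 10551185), which encodes the best studied TGF-beta isoform, read 11.21, 11.42, 11.26 and 11.12 at C, 1g, 2g and ug in set E2 1, 11.21, 11.28, 11.41 and 11.28 in E2 2, and 11.45, 11.46, 11.53 and 11.48 in E2 3. All 4 arrays of E2 3 lay above the 8 other arrays of the arm. The difference was 0.23 ± 0.04 (standard error, limma, adjusted p = 3.64e-04) from E2 1 and 0.19 ± 0.04 (adjusted p = 0.00245) from E2 2. With IgG, Tgfb1 read 11.27, 11.36, 11.24 and 11.33 in set 1, 11.26, 11.32, 11.34 and 11.34 in set 2, and 11.15, 11.12, 11.18 and 11.16 in set 3. Here set 3 was the low set and did not overlap the other sets, with differences of -0.15 ± 0.04 (adjusted p = 0.0189) and -0.16 ± 0.04 (adjusted p = 0.00942).

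Tgfb3 (10401673), which encodes another TGF-beta isoform, read 8.47, 8.53, 8.38 and 8.17 at C, 1g, 2g and ug in set E2 1, 8.52, 8.77, 8.68 and 8.28 in E2 2, and 7.92, 8.06, 7.76 and 7.93 in E2 3. Every array of E2 3 was below the other arrays of its arm. The differences were -0.47 ± 0.08 (adjusted p = 1.47e-04) and -0.64 ± 0.08 (adjusted p = 4.50e-06). In the IgG arm it read 7.86, 8.18, 8.20 and 8.01 in set 1, 8.06, 8.18, 8.02 and 8.23 in set 2, and 8.31, 8.62, 8.42 and 8.22 in set 3. IgG 3 was the high set, with a ug array that lay within the range of IgG 2, and differed by 0.33 ± 0.08 (adjusted p = 0.00553) and 0.27 ± 0.08 (adjusted p = 0.0194).

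Bmp4 (10419261), a BMP ligand gene, read 6.81, 6.82, 6.77 and 6.45 at C, 1g, 2g and ug in set E2 1, 7.01, 7.01, 6.76 and 6.60 in E2 2, and 7.05, 7.31, 6.99 and 7.29 in E2 3. E2 3 lay above E2 1, and its 2g array fell within the range of E2 2. The differences were 0.45 ± 0.09 (adjusted p = 2.94e-04) and 0.32 ± 0.09 (adjusted p = 0.00655). The IgG arrays read 7.25, 7.14, 7.17 and 7.24 in set 1, 7.27, 7.21, 7.13 and 7.35 in set 2, and 6.995, 7.03, 6.95 and 6.93 in set 3. IgG 3 was below all 8 other IgG arrays, and its difference passed against IgG 2 (-0.27 ± 0.09, adjusted p = 0.026) and not against IgG 1 (-0.23 ± 0.09, adjusted p = 0.0622).

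Tgfb2 (10360920), the isoform gene with 2 CAGAC strings, had set means of 6.37, 6.33 and 6.23 in E2 1, 2 and 3 and of 6.18, 6.14 and 6.24 in IgG 1, 2 and 3. Its sets overlapped within each arm, and neither E2 3 against E2 1 (-0.14 ± 0.07, adjusted p = 0.141) nor any other set comparison passed. Bmp2, a BMP ligand gene known for its osteogenic action, had set means between 4.69 and 4.79. It was tested only in a fit without the filter, where its lowest unadjusted p over 29 comparisons was 0.102, so no difference was detectable for this dim row.

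Among the response genes, Id2 (10399691) read 11.80, 11.55, 11.68 and 11.78 at C, 1g, 2g and ug in set E2 1, 11.60, 11.56, 11.63 and 11.55 in E2 2, and 11.03, 10.81, 10.94 and 10.96 in E2 3. Set E2 3 was the low set, with no overlap with any other set of either arm. The differences were -0.77 ± 0.06 (adjusted p = 4.35e-09) from E2 1 and -0.64 ± 0.06 (adjusted p = 5.29e-08) from E2 2. In the IgG arm Id2 read 11.55, 11.42, 11.42 and 11.17 in set 1, 11.40, 11.17, 11.10 and 11.18 in set 2, and 11.64, 11.30, 11.20 and 11.52 in set 3. The IgG sets overlapped, and set 3 exceeded set 2 by 0.20 ± 0.06 (adjusted p = 0.0161). Sets and arms together held 82.49% of the spread of Id2 over the 24 arrays, beside a median of 51.47% over all genes tested.

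Id1 (10477169) read 9.73, 10.06, 10.07 and 10.18 at C, 1g, 2g and ug in set E2 1, 9.72, 9.86, 9.59 and 10.08 in E2 2, and 9.45, 9.30, 9.34 and 9.54 in E2 3. E2 3 was below the other 8 E2 arrays, with differences of -0.60 ± 0.11 from E2 1 (adjusted p = 2.26e-04) and -0.41 ± 0.11 from E2 2 (adjusted p = 0.0074). The IgG sets of Id1 overlapped, with means of 9.61, 9.62 and 9.56, and no comparison between them passed. Id3 (10509163), the Id gene with CAGAC upstream, read 10.33, 10.38, 10.38 and 10.35 in set E2 1, 10.36, 10.25, 10.23 and 10.38 in E2 2, and 9.99, 10.04, 10.12 and 10.06 in E2 3. E2 3 was again the low set without overlap, with differences of -0.31 ± 0.07 (adjusted p = 0.00215) and -0.25 ± 0.07 (adjusted p = 0.00912). The IgG set means of Id3 were 10.21, 10.14 and 10.10, and none of their differences passed.

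Smad6 (10594418), an inhibitory Smad gene tied mainly to BMP signalling, read 8.41, 8.48, 8.40 and 8.43 at C, 1g, 2g and ug in set E2 1, 8.39, 8.41, 8.35 and 8.50 in E2 2, and 8.27, 8.03, 8.01 and 8.18 in E2 3. E2 3 lay below the other E2 arrays, with differences of -0.31 ± 0.06 (adjusted p = 3.74e-04) and -0.29 ± 0.06 (adjusted p = 7.31e-04). Its IgG set means were 8.14, 8.13 and 8.24, with no difference that passed. Smad7 (10456745), the inhibitory Smad gene that TGF-beta itself induces, read 10.01, 10.22, 10.13 and 10.36 in set E2 1, 9.68, 9.67, 9.73 and 9.86 in E2 2, and 9.80, 9.50, 9.59 and 9.52 in E2 3. Here E2 1 was the high set. E2 3 differed from it by -0.58 ± 0.08 (adjusted p = 6.26e-06) and E2 2 by -0.45 ± 0.08 (adjusted p = 0.0104), while E2 3 and E2 2 overlapped (-0.13 ± 0.08, adjusted p = 0.203). Smad7 was the only member called between E2 2 and E2 1, where 2.6% of all genes were called, and the call was lost without the 1g arrays (adjusted p = 0.0599) or the 2g arrays (adjusted p = 0.102).

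**Figure D2:**
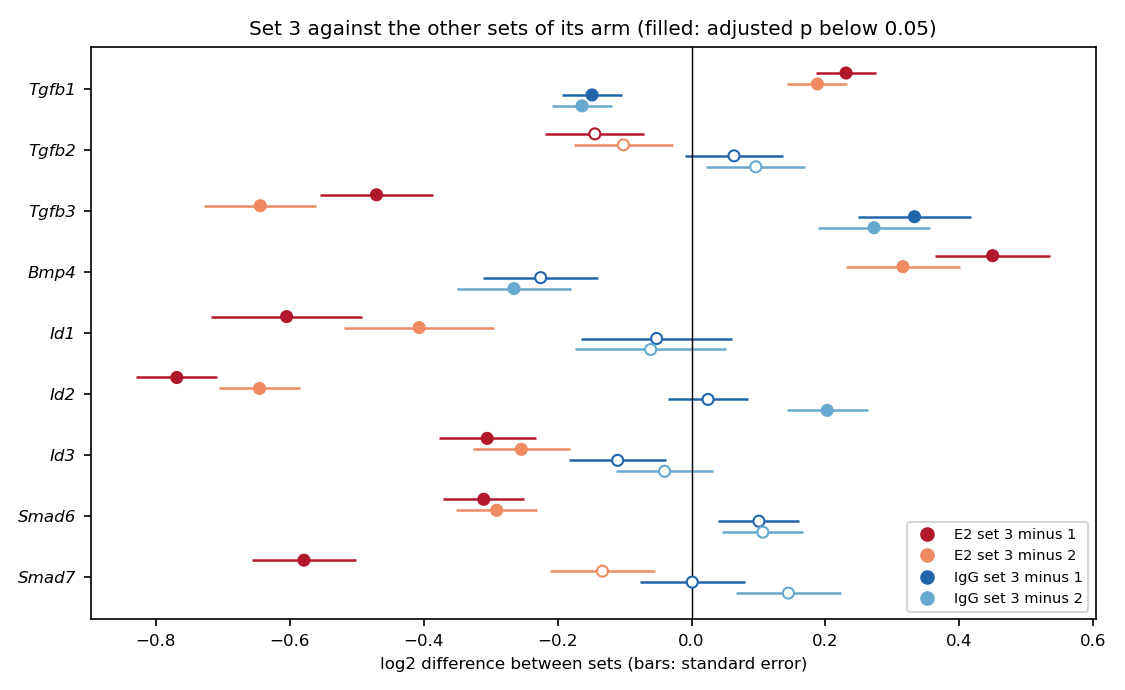
Log2 difference of set 3 from sets 1 and 2 of its own arm for the 9 tested genes, with the standard error as bars and filled points where the adjusted p is below 0.05. The red E2 points of the Id and Smad genes and of Tgfb3 lie left of 0, from -0.13 to -0.77, and those of Tgfb1 and Bmp4 lie right of 0, while the blue IgG points of Tgfb1, Tgfb3 and Bmp4 lie on the other side of 0 from the red ones.

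Fewer members were called between IgG sets. Set 3 against set 1 gave 2 of 9 (Tgfb3 higher, Tgfb1 lower) beside 24.1% of all genes (10.8% higher and 13.3% lower), and set 3 against set 2 gave 4 of 9 (Tgfb3 and Id2 higher, Tgfb1 and Bmp4 lower) beside 25.9% (10.6% higher and 15.3% lower). The first share is near the background and the second is above it, on a small count in both cases. No member was called between IgG 2 and IgG 1, where 0.0621% of all genes were; the widest difference there was that of Id2 (-0.18, adjusted p = 0.760). The IgG calls moved with the arrays used. Without the C arrays no member was called between IgG 3 and IgG 1, and 1 between IgG 3 and IgG 2, while 8 members were called for E2 3 against E2 1 whichever environment was left out.

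Lists of further genes by role were chosen with earlier results of these data known, so their counts, shares and medians are descriptions. These further genes of the pathway, 101 in 7 lists, gave 86 tested genes. Against E2 1, 10.5% of them were called higher in E2 3 and 38.4% lower, beside 18.4% and 17.3% of all genes. Against E2 2 the shares were 17.4% and 32.6%, beside 18.7% and 16.3% of all genes. In IgG 3 the shares higher and lower were 26.7% and 4.7% against IgG 1, beside 10.8% and 13.3% of all genes, and 31.4% and 4.7% against IgG 2, beside 10.6% and 15.3%. The list of latency and activation genes, with 14 tested, had 10 lower and 0 higher in E2 3 than in E2 1 (median -0.28), and 8 lower and 1 higher than in E2 2 (median -0.16). That is 71.4% and 57.1% called lower, beside 17.3% and 16.3% of all genes. The 10 called against E2 1 included Furin, a protease that cleaves the TGF-beta precursor (-0.63 ± 0.06, adjusted p = 2.15e-08), Itgb5, an integrin subunit (-0.33 ± 0.03, adjusted p = 2.28e-07), and the latent TGF-beta binding proteins Ltbp3 (-0.42) and Ltbp1 (-0.35). In IgG 3, 6 of these 14 were higher and 0 lower than in IgG 1, and 7 were higher and 0 lower than in IgG 2, where Furin differed by 0.69 ± 0.06 (adjusted p = 1.05e-08) and Itgb5 by 0.37 ± 0.03 (adjusted p = 1.03e-07). The shares called higher were 42.9% and 50.0%, beside 10.8% and 10.6% of all genes.

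The list of further response genes, with 15 tested, had 10 lower and 0 higher in E2 3 than in E2 1, and 8 lower and 1 higher than in E2 2. That is 66.7% and 53.3% called lower, beside 17.3% and 16.3% of all genes. Against E2 1, Tgfbi, a matrix protein gene named for its induction by TGF-beta, was lower, at -1.26 ± 0.06 (adjusted p = 1.20e-12), Col1a1, a collagen I chain, at -0.84 ± 0.06 (adjusted p = 3.15e-09), Bhlhe40, a transcription factor, at -0.80 ± 0.09, and Tsc22d1 at -0.34 ± 0.04. In IgG 3, 6 of these 15 were higher and 1 lower than in IgG 1, beside 10.8% and 13.3% of all genes. Against IgG 2, 5 of the 15 were higher and 0 lower, beside 10.6% and 15.3% of all genes. Tgfbi differed there by 1.00 ± 0.06 (adjusted p = 7.94e-11) and Col1a1 by 0.44 ± 0.06. Among the 6 tested Smad transducers, Smad3 (-0.48 ± 0.05, adjusted p = 8.69e-08) and Smad9 (-0.82 ± 0.07, adjusted p = 9.04e-09) were lower and Smad2 (0.23 ± 0.05, adjusted p = 0.00236) higher in E2 3 than in E2 1. These calls are 33.3% lower and 16.7% higher, beside 17.3% and 18.4% of all genes. Smad3 and Smad9 were higher in IgG 3 than in IgG 2, by 0.39 ± 0.05 and 0.46 ± 0.07. Smad1 was lower there, at -0.15 ± 0.05 (adjusted p = 0.0301). The shares were 33.3% higher and 16.7% lower, beside 10.6% and 15.3% of all genes.

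Of 14 receptors, 2 were higher and 4 lower in E2 3 than in E2 1 (14.3% and 28.6%, beside 18.4% and 17.3% of all genes). Against E2 2, 4 were higher and 4 lower (28.6% each, beside 18.7% and 16.3%). Against E2 1, Tgfbr1, the type I receptor for TGF-beta, was higher by 0.59 ± 0.10 (adjusted p = 9.89e-05), and Acvr1, a type I receptor for BMPs, was lower, at -0.51 ± 0.06 (adjusted p = 8.67e-07), as were Tgfbr2, the type II receptor (-0.30), and Tgfbr3 (-0.22). Of 12 extracellular antagonists, 4 were higher and 4 lower than in E2 1 (33.3% each, beside 18.4% and 17.3% of all genes). Against E2 2, 4 were higher and 5 lower (33.3% and 41.7%, beside 18.7% and 16.3%). Against E2 1, Fst, which encodes the activin trap follistatin, was at -1.05 ± 0.10 (adjusted p = 4.01e-08) and Twsg1 at -0.39 ± 0.04, whereas Crim1 was at 0.47 ± 0.06 and Grem1, the BMP antagonist gremlin, at 0.20 ± 0.03 (adjusted p = 2.13e-05). The 11 intracellular brakes had 1 higher and 2 lower against E2 1 (9.1% and 18.2%, beside 18.4% and 17.3% of all genes). Against E2 2 they had 4 higher and 1 lower (36.4% and 9.1%, beside 18.7% and 16.3%). Pmepa1 was lower in both, at -0.47 ± 0.06 and -0.31 ± 0.06. The 14 other ligands had 1 higher (Inhbb, 0.29 ± 0.10) and 1 lower (Inhba, -0.31 ± 0.08) against E2 1, each 7.1% and below the share of all genes. Against E2 2 they had 0 in either direction (Inhbb adjusted p = 0.0828, Inhba adjusted p = 0.173). The lists were not matched for level. Mean levels were 6.28 for Inhbb, 10.78 for Inhba, 11.79 for Furin and 12.49 for Itgb5, beside a median of 8.41 over all genes tested. Whether level bears on the shares of the lists was not tested.

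**Figure D3:**
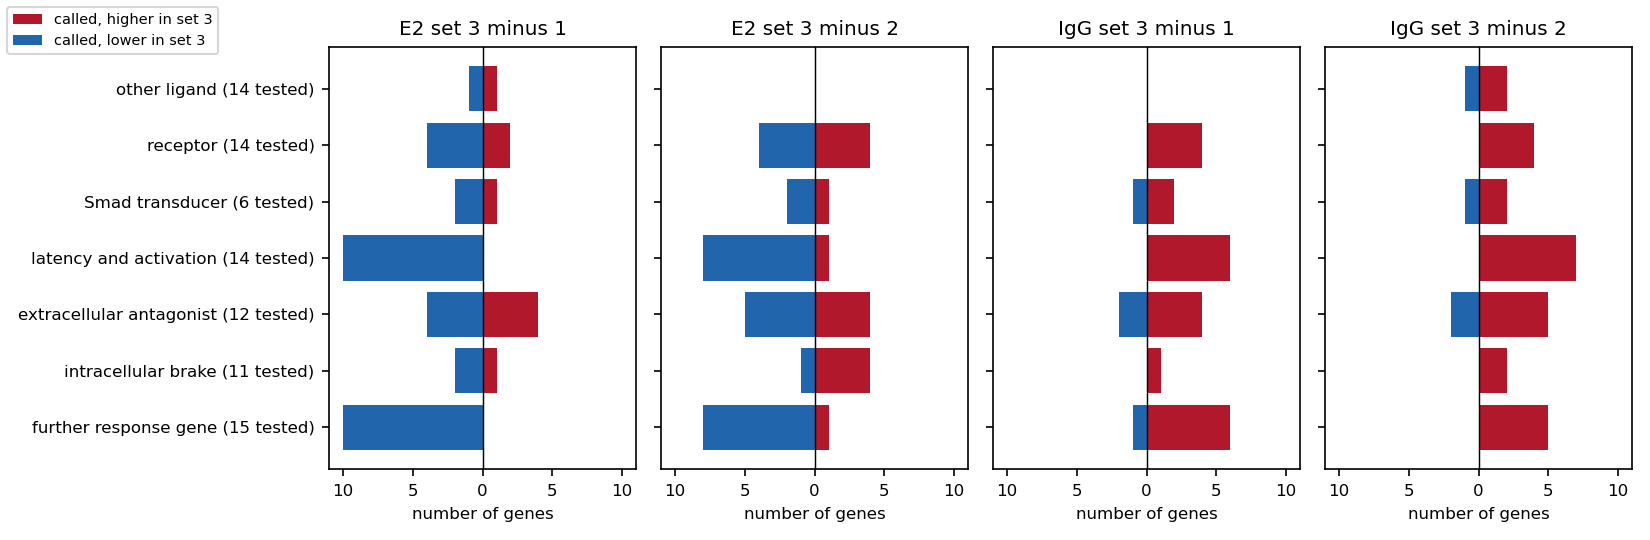
Number of genes of each pathway list called higher (red, right) or lower (blue, left) in set 3 than in set 1 or 2 of the same arm, with the number tested beside each list. In the E2 arm the latency and further response lists lie mostly on the lower side (10 and 10 lower, 0 higher against set 1), and in the IgG arm mostly on the higher side.

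Some markers of other cell types moved with the sets. The summed intensity of the 6 macrophage markers was 952.8 to 1150.5 in IgG 1, IgG 2 and E2 3. It was 650.5 to 770.9 in IgG 3, E2 1 and E2 2. Ptprc and Adgre1 were dim on all arrays (4.37 to 5.31) and, like Itgam, did not pass the filter. Of the 3 tested, Cd68 was the brightest (mean 8.66). All 3 were called lower in IgG 3 than in IgG 1 and IgG 2. In E2 3, Cd68 and Lyz2 were called higher than in E2 1 and E2 2. Csf1r was not (0.09, adjusted p = 0.384, and 0.13, adjusted p = 0.202). Col1a1, 1 of the 4 osteoblast markers on the array, is also on the response list. The sum of these 4 was 1697.1 to 2029.2 in IgG 1, IgG 2 and E2 3, and 2438.4 to 3034 in IgG 3, E2 1 and E2 2. For 5 chondrocyte markers the ranges were 940.2 to 1341 and 1375.5 to 2213.6, and for 5 adipocyte markers 1547.4 to 1669.3 and 1057.7 to 1486.2. Such sums rest mostly on the brightest markers, in the chondrocyte and adipocyte lists Sox9 and Fabp4. Both were called in each comparison of set 3 with another set of its arm. The other tested markers of these lists, Col2a1, Comp, Pparg and Plin1, were called in none of them. The sums of the osteocyte and endothelial lists overlapped between the sets. Gja1 on the osteocyte list still differed, by -0.40 ± 0.04 in E2 3 against E2 1 (limma adjusted p = 2.70e-07). In IgG 3 against IgG 1 it differed by 0.37 ± 0.04 (adjusted p = 1.40e-06). Pdpn went the other way, at -0.13 ± 0.03 in IgG 3 against IgG 1 (adjusted p = 0.00609). Sost and Fgf23 were not called between sets. The part of these markers in the differences of the members was not tested. In bulk RNA, fewer cells of a type and less RNA per cell cannot be told apart.

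The platform positions were compared with the incubator within each arm. No member passed in any of the 12 comparisons between environments, in 6 of which a position was set against C and in 6 against another position, where the members' log2 changes lay between -0.32 and 0.30 and the lowest adjusted p was 0.712. Of all genes 0% were called in each of these comparisons, and at an unadjusted p below 0.05, 0 of 108 member values and 0.711% to 8.78% of all genes passed. With number as a replicate block within the arm, 0 of the 108 passed after adjustment and 10 had an unadjusted p below 0.05 (4 of Id2, 2 each of Tgfb3 and Bmp4, 1 each of Smad7 and Id1), beside 1.86% to 17.6% of all genes over these comparisons. None passed in the 3 comparisons of position effects between arms (lowest adjusted p = 0.973) or in the 4 comparisons of the mean of the positions with C (lowest adjusted p = 0.640), again with 0% of all genes called. Values with no block named come from limma on 8 group means.

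Id2 was lower than C in 17 of 18 differences within sets. The differences of a set all subtract the same C array, here and for the genes below, so they are not independent. How many of all genes were lower or higher as often was not computed. In the IgG arm each position array was lower than the C array of its own set, in 9 of 9 differences, with values of -0.13, -0.13 and -0.38 at 1g, 2g and ug in set 1, -0.22, -0.30 and -0.22 in set 2, and -0.34, -0.45 and -0.13 in set 3. In the E2 arm 8 of 9 differences were lower, with values of -0.25, -0.12 and -0.02 in set 1, -0.04, 0.03 and -0.05 in set 2, and -0.22, -0.09 and -0.07 in set 3. The groups overlapped all the same, because the C array of IgG 2 (11.40) lay below position arrays of IgG 1 and IgG 3.

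The mean of the positions against C for Id2 in the IgG arm was -0.25 ± 0.19 without a block (adjusted p = 0.640). Arrays of the same number deviated together within an arm, and with number as a replicate block within the arm the same difference had a standard error of 0.06 and an adjusted p of 0.0421. Id2 was then the only member called, in a comparison in which 0.704% of all genes were called and 0.587% were called lower. For both arms together it was -0.17 ± 0.04 with the replicate block (adjusted p = 0.0501), with 0.669% of all genes called. In the E2 arm it was -0.09 ± 0.06 (adjusted p = 0.766), and the difference between arms was 0.16 ± 0.08 (adjusted p = 0.426).

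The call for Id2 was lost with quantile normalization and the block (adjusted p = 0.0846), with the set as a random block (0.241) and without set IgG 1 (-0.28, adjusted p = 0.188), IgG 2 (-0.26, adjusted p = 0.607) or IgG 3 (-0.23, adjusted p = 0.119). In none of the blocked comparisons of a single position did Id2 pass. Its lowest adjusted p there was 0.0855, for the 2g position of the IgG arm against C (-0.29 ± 0.07). At 1g against C in that arm, where 0.0483% of all genes were called with the block, it was 0.158. Among the 86 pathway genes, 1 was called in the blocked mean of the positions in the IgG arm, Grem1 (-0.13, adjusted p = 0.0374).

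Smad7 was lower than C in 9 of 9 differences of the IgG arm as well, from -0.34 to -0.03, with a mean of -0.17 ± 0.07 with the replicate block (adjusted p = 0.202). In the E2 arm 5 of 9 were higher and 4 lower, from -0.30 to 0.35, and the E2 sets disagreed: all positions of E2 3 were below C and those of E2 1 above. The difference between arms was 0.18 ± 0.10 with the block (adjusted p = 0.476). Id1 was higher at ug than at C in the 3 E2 sets, by 0.45, 0.35 and 0.09, and its difference of 0.30 ± 0.21 did not pass (adjusted p = 1.00). With IgG, Id1 at ug differed from C by -0.08, -0.01 and 0.21.

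Tgfb3 was higher than C in 7 of 9 IgG differences, by 0.32, 0.34 and 0.15 at 1g, 2g and ug in set 1, 0.12, -0.04 and 0.18 in set 2, and 0.30, 0.11 and -0.10 in set 3. In the E2 arm it was lower at ug than at 1g, with a difference of -0.32 ± 0.10 under the replicate block, which did not pass (adjusted p = 0.357), and Bmp4 there was at -0.27 ± 0.10 (adjusted p = 0.477). For Tgfb1 7 of 9 IgG and 8 of 9 E2 differences from C were higher, with 0.21 as the highest. Id3, Smad6, Tgfb2 and Bmp4 had differences of both signs in each arm, and so did the dim Bmp2.

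**Figure D4:**
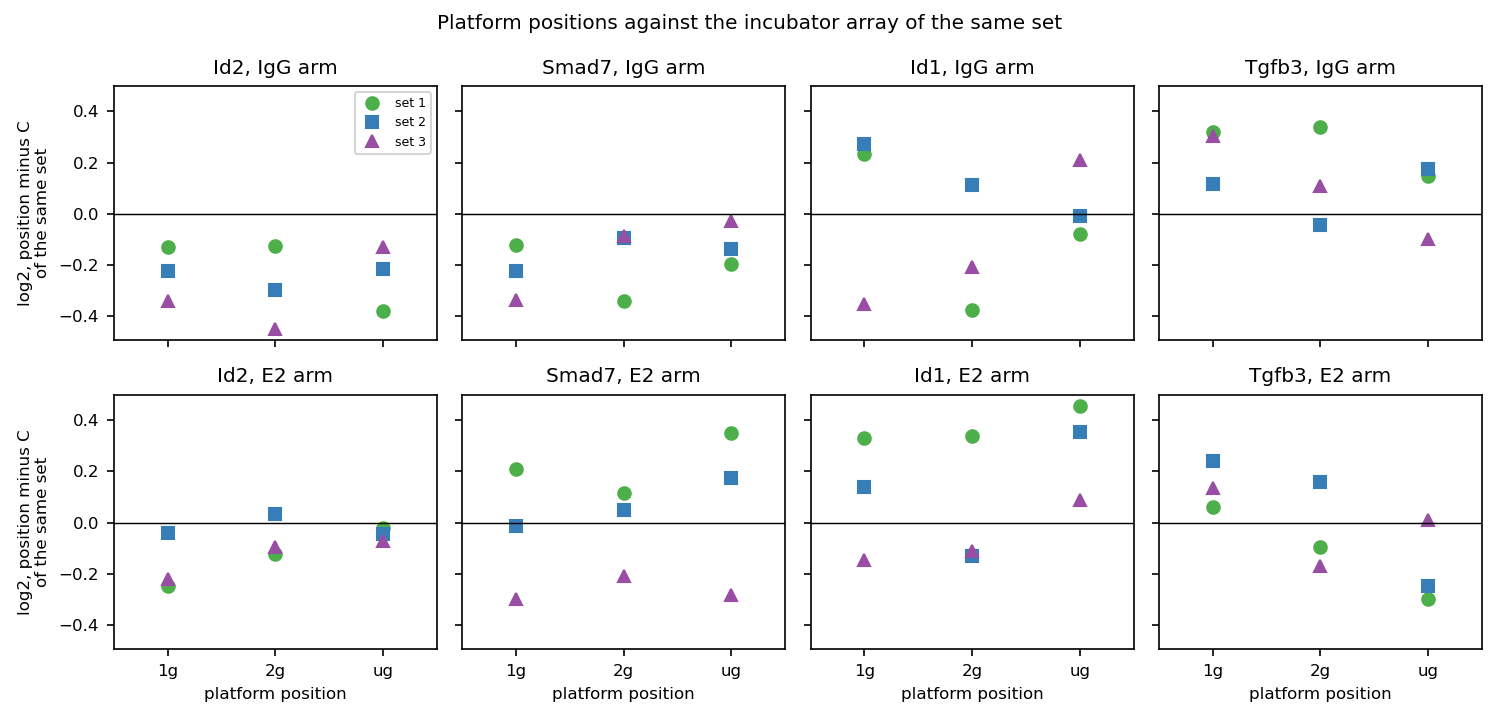
Log2 difference between each platform position and the C array of the same set for Id2, Smad7, Id1 and Tgfb3, in the IgG arm (upper row) and the E2 arm (lower row), with a symbol for each set. All 9 IgG points of Id2 and of Smad7 lie below 0, and the E2 points of Smad7 lie on both sides of 0. The points of a set share its C array.

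The antibody was compared with IgG within each environment and over the 6 set means. No member passed in any of the 5 comparisons, and 3 of 45 member values (Bmp4 and Tgfb2 at ug, Tgfb2 over set means) had an unadjusted p below 0.05. Of all genes 4.32% to 29.9% had such a p in these comparisons, with 12.9% at ug and 21.6% over set means. In the incubator 423 genes were called, 2.92% of all genes, and 0% in each of the other 4 comparisons. The count of 423 fell to 0 with the set as a random block. At ug, Bmp4 read 6.45, 6.60 and 7.29 in the E2 arm and 7.24, 7.35 and 6.93 in the IgG arm, so that the arms overlapped through their number 3 arrays. Its difference was -0.40 ± 0.17 (95% confidence interval -0.74 to -0.05, adjusted p = 0.340). Tgfb2 at ug read 6.41, 6.38 and 6.28 in the E2 arm and 6.17, 6.11 and 6.24 in the IgG arm, with a difference of 0.19 ± 0.09 (interval 0.01 to 0.37, adjusted p = 0.374). Every E2 array was above every IgG array, though 6.28 and 6.24 lay close together. The row was dim, just above the 40th percentile of 5.90 to 6.08, and the share of all genes without overlap was not computed. Over set means (3 per arm) Tgfb2 differed by 0.13 ± 0.05 (adjusted p = 0.219), Bmp4 by -0.23 ± 0.13 (adjusted p = 0.315) and Id2 by 0.07 ± 0.19 (adjusted p = 0.852).

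Because number 3 stood apart in both arms, the antibody comparison was also computed without it, a choice made after its values were seen that therefore describes the other 4 sets only. Over their means 7 of 9 members were called, beside 43.1% of all genes. Bmp4 was lower in the E2 sets (-0.44 ± 0.06, adjusted p = 7.09e-04). Tgfb3 (0.38 ± 0.07, adjusted p = 0.003), Id2 (0.34 ± 0.06, adjusted p = 0.0035), Smad6 (0.29 ± 0.05, adjusted p = 0.00328), Id1 (0.30 ± 0.07, adjusted p = 0.0102), Tgfb2 (0.19 ± 0.05, adjusted p = 0.0122) and Id3 (0.15 ± 0.05, adjusted p = 0.0415) were higher, and Tgfb1 and Smad7 did not pass. Within single environments 4 members were called at C beside 29.8% of all genes, 3 at 1g beside 25.1%, 4 at 2g beside 13.7% and 4 at ug beside 23.9%. The number 3 sets had the arms in reverse order, with means in E2 3 and IgG 3 of 7.16 and 6.98 for Bmp4, 7.92 and 8.39 for Tgfb3 and 10.94 and 11.42 for Id2. The antibody and the difference between sets cannot be told apart in the 4 sets.

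Members also varied within sets. Over the 24 arrays, they were correlated as deviations from set means. The pairs with the largest r of either sign were Tgfb3 with Smad7 (-0.67), Tgfb3 with Bmp4 (0.60), Id1 with Smad7 (0.57) and Tgfb2 with Smad7 (0.56). Next came Id1 with Id3 (0.54), Tgfb2 with Smad6 (0.52), Bmp4 with Smad7 (-0.51) and Tgfb3 with Id1 (-0.50). Id2 correlated with Id1 at 0.15. The spread of r over pairs of other genes was not computed. Arrays within a set share their set, and these values are given as descriptions. The genes whose deviations were most like those of Tgfb3 were Plk1 (r = 0.92), a mitotic kinase gene, Fbxl8 (0.90) and Angel1 (0.89). Those most like Id1 were D8Ertd738e (0.88), Orai2 (0.85) and the immediate early gene Ier2 (0.85). Those most like Id2 were Cd24a (0.87), Hddc2 (0.80) and Stc1 (0.80), and those most like Bmp4 were Ikbke (0.79), Lrrc57 (0.78) and L3mbtl2 (0.78).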

How the data were processed

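Total RNA of MLO-Y4 cells was hybridised as biotin-labelled cRNA to 24 Affymetrix-protocol arrays, per the labels' protocols. Values were deposited as log2 intensities, as their range of 2.36 to 14.06 shows. MAS5 was used, per the submitters' processing notes, with no role or version, and how arrays were scaled to each other is not given in the sources used here. The number of arrays limits the precision.

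Groups and replicate numbers were read from titles and source names. Of the rows, 23410 had a gene symbol in the probe annotation, which can be old, 21789 had exactly 1, 1621 had several and 12146 were not listed; 21698 matched RefSeq by gene number. Rows below the 40th percentile on all but 2 or fewer arrays were left out and the brightest row per gene kept. limma 3.58.1 in R 4.3.3 fitted 8 group means (moderated variances with trend, two-sided, Benjamini-Hochberg within a comparison, threshold 0.05), leaving 16 residual degrees of freedom with 4.08 prior ones (12 and 8.29 where sets were in the fit). The fits were also run on simulated data, with known changes planted in independent noise. That noise held no shared set differences, so these runs do not show how the fits behave under them.

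Replicate numbers were treated as pairing the arrays of an arm on the strength of the values. All 36 pairs of the same number in an arm correlated at 0.195 to 0.812 (median 0.511) in their deviations from group means. The 72 pairs of different numbers in an arm lay at -0.675 to 0.548 (median -0.452), with 23 above 0.1, so the ranges overlapped. Pairs of the same number between arms lay at -0.748 to -0.0141. Arms cannot be compared under the block. Alternatives were the block, the set as a random block, quantile normalization, no filter, no variance trend, averaged rows per gene, fits of the compared arrays alone, and fits without single arrays, sets or environments. The block combined with other settings or without a set, and leaving out number 3, were added after the values were seen. All 10 members are named, with up to 4 genes of the smallest p per list and, for the 4 members with the widest range, the 3 genes of highest correlation. Members and lists were chosen with earlier results of these data known, and their counts, shares and medians are descriptions.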

Additional observations from a re-analysis of the deposited data

How the results depend on the processing

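In 30 comparisons, 4221 values of the members were recomputed under alternatives; 4179 kept their side of the threshold, 18 called values were lost, 24 were gained and 0 called values turned sign, while 412 uncalled values did. The paired fit with the replicate block within the arm raised the members called in the mean of the positions against C in the IgG arm from 0 to 1 (Id2, adjusted p = 0.0421) and changed no other count of members. Under the combined settings added later, none kept that call: no filter gave an adjusted p of 0.0516 and no variance trend 0.0846. Leaving out both number 3 sets raised the members called for E2 against IgG from 0 to 4 at C, 3 at 1g, 4 at 2g, 4 at ug and 7 over set means, which are 22 of the 24 gains; the other gain besides Id2 was Tgfb2 in E2 3 against E2 1 under quantile normalization (-0.18, adjusted p = 0.045). Leaving out the arrays of 1 environment gave 0 to 2 members for IgG 3 against IgG 1, 1 to 3 for IgG 3 against IgG 2 and 0 to 1 for E2 2 against E2 1, with fewer arrays in each fit. Of the 18 losses, 17 came this way; Bmp4 in IgG 3 against IgG 2 was lost in each of the 4 and also under quantile normalization (adjusted p = 0.0769), and Id3 in E2 3 against E2 2 was lost without C (0.0547) or ug (0.0585). Without ug, Bmp4 in E2 3 against E2 2 fell short at 0.19 (adjusted p = 0.0805). Among all genes, the 423 called for E2 against IgG at C became 211 with quantile normalization, 60 without the filter, 0 with only the arrays compared and 0 to 928 without 1 array. The 102 called with the replicate block in the mean of the positions of the IgG arm became 86 with quantile normalization, 67 without the filter, 47 without the trend, 20 with a random block and 0 to 2 without 1 set; the cause was not tested. The dim row of Bmp2 limits what could be seen of that gene.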
